A study of Mus musculus with 6 samples.

Results

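Solute carriers were examined as a gene family: the protein-coding genes whose symbol is Slc followed by a number. The deposited table of mNET-seq values held 225 of them among 12974 protein-coding genes, and another 146 of the 371 solute carrier genes in the annotation are not analysed here. The samples were C57BL/6 mouse embryonic stem cells grown with serum, LIF and 2 inhibitors, CHIR99021 against GSK3 and PD0325901 against MEK. There were 2 libraries from control cells, 2 from a Mettl3 knockout called KO1 and 2 from another Mettl3 knockout called KO2. Mettl3 is the methyltransferase that deposits m6A on nascent RNA. How the knockouts and the control were made, whether each is a single clone, and whether libraries of a group came from separate cultures are not stated, so the p-values speak for the spread of these libraries alone, and that spread could be technical.

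mNET-seq sequences the short RNA protected by immunoprecipitated RNA polymerase II after chromatin is digested with micrococcal nuclease, and so records where polymerases sit along a gene. The deposited value is the log2 of a ratio within each transcript that the authors named an escaping index. Which windows it compares is not stated in the labels. The index was higher for longer transcripts, so levels are compared between genes only among genes of like length. It is not an RNA level and not a polymerase amount, and because cells were measured in bulk, a change in some cells and a smaller change in all cells cannot be told apart. One transcript stood for each gene, the protein-coding one with the longest genomic span. Every difference below is knockout minus control in log2 index, with its standard error after the ± sign, and was called where limma's Benjamini-Hochberg adjusted p over all 12974 genes was under 0.05.

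Solute carriers are membrane proteins that move small molecules without splitting ATP themselves: some follow a gradient, some exchange one solute for another and some are driven by sodium or protons. Plasma membrane families bring in sugars, amino acids, ions, vitamins and nucleosides, while the Slc25 family sits mainly in the inner mitochondrial membrane and passes nucleotides, phosphate, citrate, amino acids and cofactors between cytosol and matrix. Other families work inside the cell, such as the Slc35 carriers that load nucleotide sugars into the Golgi and endoplasmic reticulum. Pluripotent stem cells are known for a high demand for glucose and for certain amino acids. By family, 39 of the 225 members were Slc25 carriers (of 47 annotated), 127 belonged to plasma membrane families, 44 to intracellular families and 11 to families with both locations. A further 4 carry the symbol without being transporters (Slc9a3r1, Slc9a3r2, Slc7a6os and Slc4a1ap).

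The targeted gene could be checked only through the same ratio. The index of Mettl3 was 2.69 and 2.46 in control, 2.44 and 2.42 in KO1 and 2.10 and 2.30 in KO2, and its adjusted p (limma) was 0.618 in KO1 and 0.166 in KO2. Of the pluripotent stem cell markers, 13 of 13 were in the table, and 1 fell in KO1 and 2 in KO2 (Klf4 in both, Tfcp2l1 in KO2). Of all coding genes, 6.27% were called in KO1 and 29.6% in KO2. Fibroblast markers, listed because embryonic stem cells are often grown on feeder cells, were in the table for 5 of 12 genes, with control means from 3.28 (Thy1) to 7.41 (Fn1). A ratio gives no level at which such a marker counts as absent. Thy1 was the 1 gene of these 5 with a called change, in KO1, and the part of feeder cells in the results was not tested.

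Most solute carrier genes had a lower index in both knockouts, and no member was called higher in either. In KO2, 74 of 225 members fell, against 29.6% of all protein-coding genes called in that comparison (29.0% lower), so the share of members, 32.9%, was near the background. In KO1, 17 members fell, 7.56% of the family, against 6.27% of all protein-coding genes (6.0% lower). All 17 were also among the 74. With both knockouts averaged, 67 members fell, against a background of 26.5%. The 2 knockouts were compared with the same 2 control libraries, so agreement between their columns of values is not independent. Counting by order alone, both KO2 libraries lay below both controls for 146 members (67.0% of all coding genes did so) and above both for 8 (4.99%). For KO1 the counts were 122 (53.3%) and 15 (8.56%).

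The median index of the members was 4.65 and 4.70 in control, 4.11 and 4.31 in KO1, and 3.93 and 3.90 in KO2. For all coding genes the corresponding medians were 4.79 and 4.80, 4.41 and 4.42, and 4.24 and 4.23. The median change of the members was -0.41 in KO1 and -0.69 in KO2, beside -0.37 and -0.58 over all coding genes. Called members differed from control by -0.63 to -2.43 in KO2 and by -0.89 to -1.67 in KO1. Once each library was centred on its own median, the members' median change was -0.04 in KO1 and -0.13 in KO2, and no member was called in either. At an unadjusted p under 0.05 in the centred values, 26 members were lower and 23 higher in KO1, and 40 lower and 26 higher in KO2. Of all 12974 coding genes, 1335 were lower and 1343 higher in KO1 by the same count. In KO2, 1602 were lower and 1390 higher. The calls also depended on having all 6 libraries. KO1 calls were lost whichever library was left out, a KO2 library included, although KO2 libraries do not enter the KO1 difference. In KO2 the calls became fewer or were lost. The members' median change then ran from -0.41 to -0.38 in KO1 and from -0.69 to -0.57 in KO2. At an unadjusted p under 0.05 in limma with all libraries, 103 members were lower and 1 was higher in KO2 (46.2% of coding genes passed in either direction). In KO1 these counts were 69 and 4 (32.1%).

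The Slc25 mitochondrial carriers followed the family as a whole. In KO2, 14 of 39 fell and in KO1 3 of 39 fell. Their median change was -0.40 in KO1 and -0.74 in KO2, which after centring was -0.02 and -0.18. The plasma membrane families had 38 of 127 members called in KO2 and 8 in KO1. Their medians of -0.36 and -0.62 became 0.02 and -0.06 after centring. Over all coding genes the centred medians were 0.006 and -0.02. The changed sign in KO1 thus places these families near the background, with 61 members lower and 66 higher. Intracellular families had 17 of 44 called in KO2 and 4 in KO1, with medians of -0.65 and -0.78, or -0.27 and -0.23 after centring. In the order given, the called shares in KO2 were 35.9%, 29.9% and 38.6%, beside 29.6% of all coding genes. In KO1 they were 7.69%, 6.30% and 9.09%, beside 6.27%. These groups are set side by side as counts, and no difference between them was tested.

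Slc25a35, a mitochondrial carrier whose substrate is not settled, had the largest fall of any Slc25 member. It lies on chromosome 11 (mm10 chr11:68968131-68972516), and its index was 3.29 and 3.53 in control, 2.69 and 2.64 in KO1 and 1.14 and 1.26 in KO2. The 3 groups did not overlap, with KO2 lowest. The change was -2.21 ± 0.18 in KO2 (limma adjusted p = 0.017) and -0.75 ± 0.18 in KO1 (adjusted p = 0.0612), and as a plain ratio the mean index went from 10.6 in control to 6.33 in KO1 and 2.3 in KO2. Its locus overlaps that of Rangrf in the annotation, so its values may hold reads of that gene. The index of Rangrf itself was -0.01 and 1.13 in control and -0.36 and -0.90 in KO2, a change of -1.20 that was not called (limma adjusted p = 0.0892).

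Slc25a15, the ornithine carrier of the urea cycle, stood at 5.08 and 4.94 in control, 3.89 and 3.98 in KO1 and 3.49 and 3.50 in KO2. It fell by 1.07 in KO1 (limma adjusted p = 0.0389) and by 1.52 in KO2 (adjusted p = 0.017), again without overlap between groups. The other Slc25 carriers called in KO1 were Slc25a51, which brings NAD into mitochondria, and Slc25a33, a pyrimidine nucleotide carrier. Slc25a51 was at 5.40 and 5.17 in control, 4.25 and 3.88 in KO1 and 3.93 and 3.89 in KO2. Slc25a33 was at 5.27 and 4.99, 3.83 and 3.54, and 3.98 and 3.53. For both genes the knockouts lay far below control and overlapped each other. A transcript of Slc25a51 that starts 3900 bases away gave differences of 0.39 in KO1 and -0.15 in KO2. Among carriers called in KO2 alone were Slc25a36, another pyrimidine nucleotide carrier (-1.27 ± 0.21, limma adjusted p = 0.0185), Slc25a13, the aspartate and glutamate exchanger of the malate shuttle (-1.04 ± 0.26, adjusted p = 0.0355), and Slc25a26, which imports S-adenosylmethionine, the methyl donor (-0.74 ± 0.20, adjusted p = 0.0446). In the direct test of KO1 against KO2 the limma adjusted p of these genes was 0.144, 0.411 and 0.223. A transcript of Slc25a36 that starts 26687 bases away gave a difference of 0.13 in KO2. Slc25a37, the iron importer mitoferrin, fell by 1.58 in KO2 (limma adjusted p = 0.0364) from 9.72 and 8.59 in control to 7.67 and 7.48.

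Slc25a5, an ADP/ATP exchanger, stood at 2.92 and 3.28 in control, 3.22 and 3.05 in KO1 and 2.89 and 3.09 in KO2. Slc25a1, the citrate carrier, was at 3.96 and 4.34, 4.20 and 4.34, and 4.16 and 4.16. In both genes each knockout overlapped control, and the changes in KO2 were -0.11 ± 0.21 and 0.01 ± 0.20 (limma adjusted p = 0.693 and 0.974). Slc25a5 has near-identical pseudogene copies, so its values are uncertain. Slc25a39, which carries glutathione into mitochondria, had 2.10 and 1.64 in control, 1.10 and 1.55 in KO1 and 2.13 and 1.91 in KO2. Both KO1 libraries lay below both controls, a difference of -0.55 that was not called. Slc25a44, a carrier of branched-chain amino acids, was at 0.17 ± 0.24 in KO1 and 0.40 ± 0.24 in KO2, neither called. Slc25a5, Slc25a1 and Slc25a39 are short genes. Of the 12 Slc25 genes in the shortest of 3 equal classes of coding genes by genomic span (0.52 to 12.943 kb), 3 fell in KO2 (Slc25a35, Slc25a51 and Slc25a3) and the median change was -0.17, beside -0.54 for all coding genes of that class. In the middle class (up to 38.039 kb) 8 of 19 fell, with a median of -0.84, and in the longest class 3 of 8 fell, with a median of -0.89. For the plasma membrane families the medians ran the other way, at -0.76, -0.59 and -0.57 from the shortest to the longest class. Over coding genes of all lengths, the median change in KO2 was -0.58 and 29.6% were called. Their change in KO2 had a Pearson's r of -0.07 with log10 genomic span. The difference between the Slc25 and plasma membrane patterns was not tested.

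**Figure D1:**
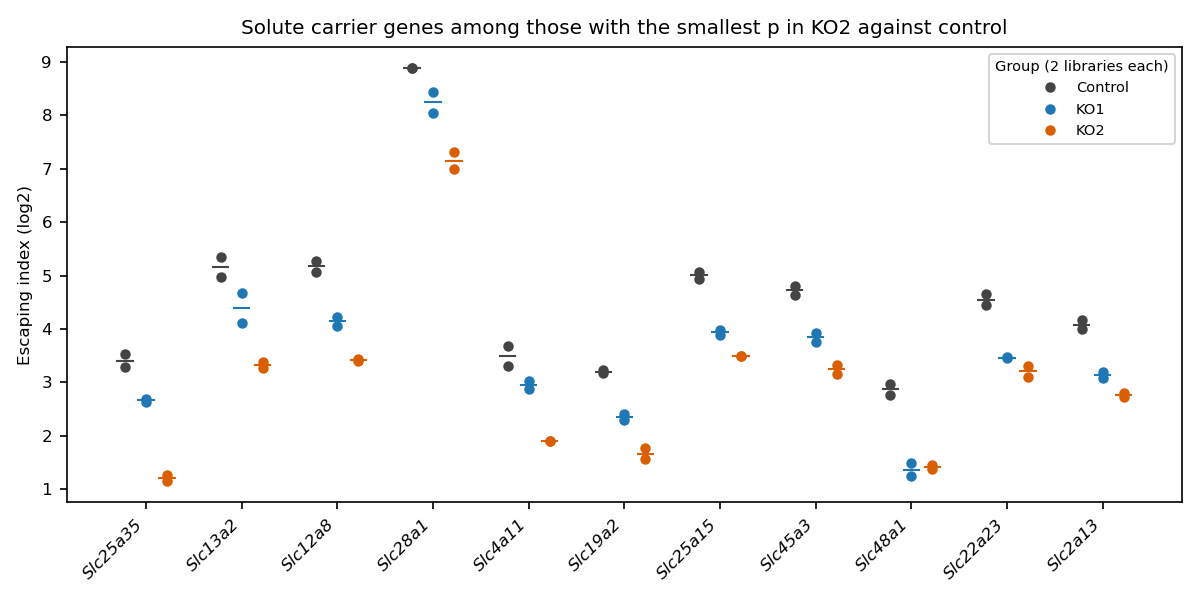
Escaping index (log2) of 11 solute carrier genes among those with the smallest p in KO2 against control, for each library (points, 2 per group) with the group mean (short lines). In all 11 genes both KO2 libraries lie below both controls, and Slc25a35 shows the widest gap, from 3.29 and 3.53 in control to 1.14 and 1.26 in KO2.

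Of 19 sugar carriers measured, 2 fell in KO1 and 2 in KO2 (Slc2a13 and Slc45a3 in both). That is 10.5% in each, beside 6.27% of all coding genes in KO1 and 29.6% in KO2, and with both knockouts averaged 5 of the 19 fell, 26.3% beside 26.5%. The median change was -0.57 in KO1 and -0.48 in KO2, the latter 0.08 after centring. Slc2a13, the proton-coupled myo-inositol transporter, was at 4.00 and 4.17 in control, 3.08 and 3.20 in KO1 and 2.81 and 2.73 in KO2, changes of -0.94 in KO1 (limma adjusted p = 0.0445) and -1.31 in KO2 (adjusted p = 0.017). The 3 groups were separate, with KO2 lowest. The main glucose transporters were not called. Slc2a1 (GLUT1) had 4.26 and 4.09 in control, 3.70 and 3.80 in KO1 and 3.82 and 3.79 in KO2. Slc2a3 (GLUT3), the high-affinity form of stem cells and neurons, had 7.55 and 7.29, 7.67 and 8.03, and 6.93 and 6.96. All knockout libraries lay below control for Slc2a1, while for Slc2a3 only those of KO2 did. Slc5a11, a sodium-driven inositol transporter, stood in KO1 at 7.84 and 6.58 against 5.67 and 6.05 in control (1.35 ± 0.45, limma adjusted p = 0.11), and was not called.

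Monocarboxylate carriers of the Slc16 family export lactate or move pyruvate, ketone bodies and related acids. In KO2, 2 of 7 fell (28.6%, beside 29.6% of all coding genes). In KO1 0 of 7 were called (beside 6.27%), with 1 lower at an unadjusted p under 0.05. The median changes, -0.13 and -0.35, were 0.25 and 0.20 after centring. Slc16a1, the main lactate and pyruvate transporter MCT1, stood at 2.25 and 2.30 in control, 1.96 and 1.98 in KO1 and 1.22 and 1.31 in KO2. Its groups were separate and stepped down in that order, with a change of -1.01 ± 0.17 in KO2 (limma adjusted p = 0.0186) and -0.30 ± 0.17 in KO1 (adjusted p = 0.261). Slc16a10, which moves aromatic amino acids, was the other called in KO2 (-0.91 ± 0.17, adjusted p = 0.0203 in limma). A transcript of Slc16a10 that starts 65649 bases away gave a difference of 0.15 in KO2.

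Amino acid carriers, 37 in all, had 2 members called in KO1 (5.41%) and 10 in KO2 (27.0%). Of all coding genes, 6.27% and 29.6% were called. The medians of these carriers, -0.24 and -0.51, became 0.13 and 0.04 after centring, beside 0.006 and -0.02 over all coding genes. In the centred values 15 carriers were lower and 22 higher in KO1, and 18 lower and 19 higher in KO2. Slc36a4, a high-affinity carrier of proline and tryptophan, stood at 4.80 and 4.93 in control, 3.50 and 3.19 in KO1 and 3.62 and 3.22 in KO2. It fell by 1.52 in KO1 (limma adjusted p = 0.0376) and by 1.45 in KO2 (adjusted p = 0.0177). Slc7a6, the light chain that pairs with Slc3a2 to exchange cationic for neutral amino acids, was at 6.60 and 6.06 in control, 4.69 and 5.07 in KO1 and 4.91 and 4.77 in KO2. In both genes the knockouts overlapped each other and lay more than 1 log2 unit below the lower control in KO2. Several carriers best known in stem cells were not called. Slc1a5, the glutamine importer ASCT2, was at 4.19 and 4.11 in control, 3.43 and 3.68 in KO1 and 3.40 and 3.70 in KO2, with a change in KO2 of -0.60 ± 0.20 (limma adjusted p = 0.0662). Slc7a5, the large neutral amino acid exchanger LAT1, was at 4.45 and 4.70, 4.37 and 4.48, and 4.32 and 4.21, and its partner Slc3a2 at 7.58 and 7.85, 7.16 and 7.79, and 6.92 and 6.99. Neither was called. Slc7a11, the cystine importer, had 4.77 and 4.06 in control and 3.99 and 3.07 in KO2. Both KO2 libraries lay below control, but its 2 controls were far apart and the change was not called (limma adjusted p = 0.121). Slc7a3, a cationic amino acid transporter, was the member with the smallest p among those higher in KO1, at 4.35 and 4.90 against 3.64 and 3.51 in control (1.05 ± 0.24, limma adjusted p = 0.057), and missed the threshold. In KO2 it was at 3.62 and 3.86. Slc1a3, a glutamate transporter, was at 6.68 and 6.70 in KO1 against 6.26 and 5.73 in control, also not called (limma adjusted p = 0.105).

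Among carriers of inorganic ions, 1 of 25 fell in KO1 (4.0%) and 7 in KO2 (28.0%), beside 6.27% and 29.6% of all coding genes. Slc12a8, a member of the cation and chloride cotransporter family that is also described as a nicotinamide mononucleotide transporter, was the 1 called in both. Slc4a11, a transporter of the corneal endothelium, fell from 3.68 and 3.31 in control to 1.91 and 1.90 in KO2 (-1.59 ± 0.20, limma adjusted p = 0.017), with KO1 between them at 2.87 and 3.03. The KO2 libraries of Slc4a11 stood clear of all others, and the 3 groups did not overlap. Slc12a2, the sodium, potassium and chloride cotransporter, was at -0.62 ± 0.18 in KO2 and missed the threshold (limma adjusted p = 0.0502). Slc4a2, an anion exchanger, had widely spread controls (6.18 and 5.01), and its KO2 libraries (4.78 and 5.55) overlapped them. Both phosphate importers measured fell in KO2, one of them Slc20a1 (5.35 and 5.22 in control, 4.53 and 4.37 in KO2, limma adjusted p = 0.0235). A transcript of Slc20a1 that starts 546 bases away gave a difference of -0.12 in KO2.

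Carriers of organic anions and cations move drugs, bile acids, carnitine and citrate. Of 14 measured, 3 were called in KO1 (21.4%) and 8 in KO2 (57.1%), beside 6.27% and 29.6% of all coding genes. These shares were not tested against other genes. Median changes were -0.56 in KO1 and -0.97 in KO2 (-0.19 and -0.41 after centring). Slc13a2, the sodium-driven citrate and succinate importer, was at 4.98 and 5.35 in control, 4.12 and 4.68 in KO1 and 3.38 and 3.27 in KO2, a change of -1.84 ± 0.25 (limma adjusted p = 0.017). Slc22a23, an Slc22 protein without a settled substrate, was at 4.65 and 4.45, 3.45 and 3.47, and 3.10 and 3.31 and was called in both knockouts (limma adjusted p = 0.0416 and 0.017). Both genes had KO2 lowest and no overlap between control and knockouts. In the Slc22 family 5 of 7 measured members fell in KO2 (71.4%), including Slc22a5, the carnitine importer (-1.10 ± 0.27, limma adjusted p = 0.0351). The other 18 of the 25 annotated Slc22 genes are not analysed here. Slc10a3 had an index below 0 in every library, -0.35 and -0.33 in control, -1.83 and -1.94 in KO1 and -1.46 and -1.61 in KO2, and overlaps Ubl4a. Slc47a1, the MATE1 exporter of organic cations, was at 4.14 and 4.23 in control, 2.51 and 2.82 in KO1 and 3.58 and 3.16 in KO2. For Slc10a3 and Slc47a1 KO1 was the lower knockout, with changes of -1.55 ± 0.20 and -1.52 ± 0.22 in KO1 (adjusted p = 0.0376 for both in limma). Slc13a5, another citrate importer, and Slc10a7 were at 0.75 ± 0.34 and 0.34 ± 0.19 in KO2, above control and not called (limma adjusted p = 0.137 and 0.209).

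Nucleoside and vitamin carriers feed nucleotide synthesis and cofactors. Slc28a1, the sodium-driven pyrimidine nucleoside importer, was at 8.89 and 8.89 in control, 8.43 and 8.05 in KO1 and 6.99 and 7.31 in KO2 (-1.74 ± 0.23 in KO2, limma adjusted p = 0.017). Slc29a4, which also moves monoamines, was at 5.41 and 5.92, 3.76 and 4.22, and 4.26 and 4.38. Its change of -1.67 ± 0.26 was the largest fall in KO1 of any member (limma adjusted p = 0.0402). Slc29a1, the equilibrative nucleoside transporter ENT1, was at 4.66 and 4.74, 4.85 and 4.72, and 4.84 and 4.64, and was called in neither knockout. Of 5 nucleoside carriers, 1 was called in KO1 (20.0%) and 2 in KO2 (40.0%), beside 6.27% and 29.6% of all coding genes. Slc19a2, a thiamine importer, went from 3.24 and 3.17 in control to 2.40 and 2.30 in KO1 and 1.77 and 1.56 in KO2 (-1.54 ± 0.18 in KO2, limma adjusted p = 0.017; adjusted p = 0.0501 in KO1). Slc46a1, the proton-coupled folate importer, was at 4.98 and 5.31, 4.11 and 4.09, and 4.38 and 4.41, and was called in both knockouts. By contrast Slc19a1, the reduced folate carrier, had 3.67 and 4.48 in control, 4.03 and 4.41 in KO1 and 4.68 and 4.51 in KO2, so that its KO2 libraries lay above both controls without a call (limma adjusted p = 0.234). Of 10 carriers of vitamins and other nutrients, 1 fell in KO1 (10.0%) and 3 in KO2 (30.0%). Of 5 fatty acid carriers 0 were called in either knockout, with 1 lower in KO1 and 0 in KO2 at an unadjusted p under 0.05. Slc27a1, a fatty acid importer, was at 2.38 and 2.68 in control and 2.29 and 2.52 in KO2.

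Metal carriers load iron, zinc, copper and manganese. Of 27 measured, 3 fell in KO1 (11.1%) and 8 in KO2 (29.6%), beside 6.27% and 29.6% of all coding genes. Median changes were -0.54 and -0.67 (-0.16 and -0.11 after centring). Slc48a1, which moves heme out of endosomes and lysosomes, was at 2.77 and 2.97 in control, 1.25 and 1.48 in KO1 and 1.45 and 1.38 in KO2, and fell in both knockouts (-1.50 ± 0.19 and -1.45 ± 0.19, limma adjusted p = 0.0376 and 0.017). The 2 knockouts overlapped each other, at about the same distance below control. Slc40a1, the iron exporter ferroportin, had the largest change of any member in KO2, -2.43 ± 0.49 (limma adjusted p = 0.0237), from 1.90 and 2.73 in control to 0.67 and 1.79 in KO1 and -0.46 and 0.23 in KO2. Its 2 libraries stood far apart in each group, and the highest KO2 library was still below both controls. It was chosen after its values were seen. Slc30a5, a zinc carrier of the early secretory pathway, fell in both knockouts, from 4.46 and 4.22 to 3.15 and 3.32 in KO1 and 3.14 and 3.25 in KO2. Slc30a1, the zinc exporter of the plasma membrane, was at 3.85 and 3.84, 3.39 and 3.44, and 3.38 and 3.06 and just missed the threshold in KO2 (limma adjusted p = 0.0515). Slc31a1, the copper importer CTR1, fell in KO2 (-1.27 ± 0.19, limma adjusted p = 0.0177). A transcript of Slc31a1 that starts 24774 bases away gave a difference of -0.02 in KO2. Slc30a10, a manganese exporter, was at 3.14 and 2.90 in control, 3.11 and 3.42 in KO1 and 2.26 and 2.21 in KO2, so that only KO2 lay below control (limma adjusted p = 0.0357). Of the Slc39 zinc importers 1 of 11 fell in KO2. Slc39a1 had controls of 3.54 and 4.89, too far apart to place the knockouts, and Slc39a2 was at 0.47 and 0.94 in control and 0.79 and 1.57 in KO2, not called.

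**Figure D2:**
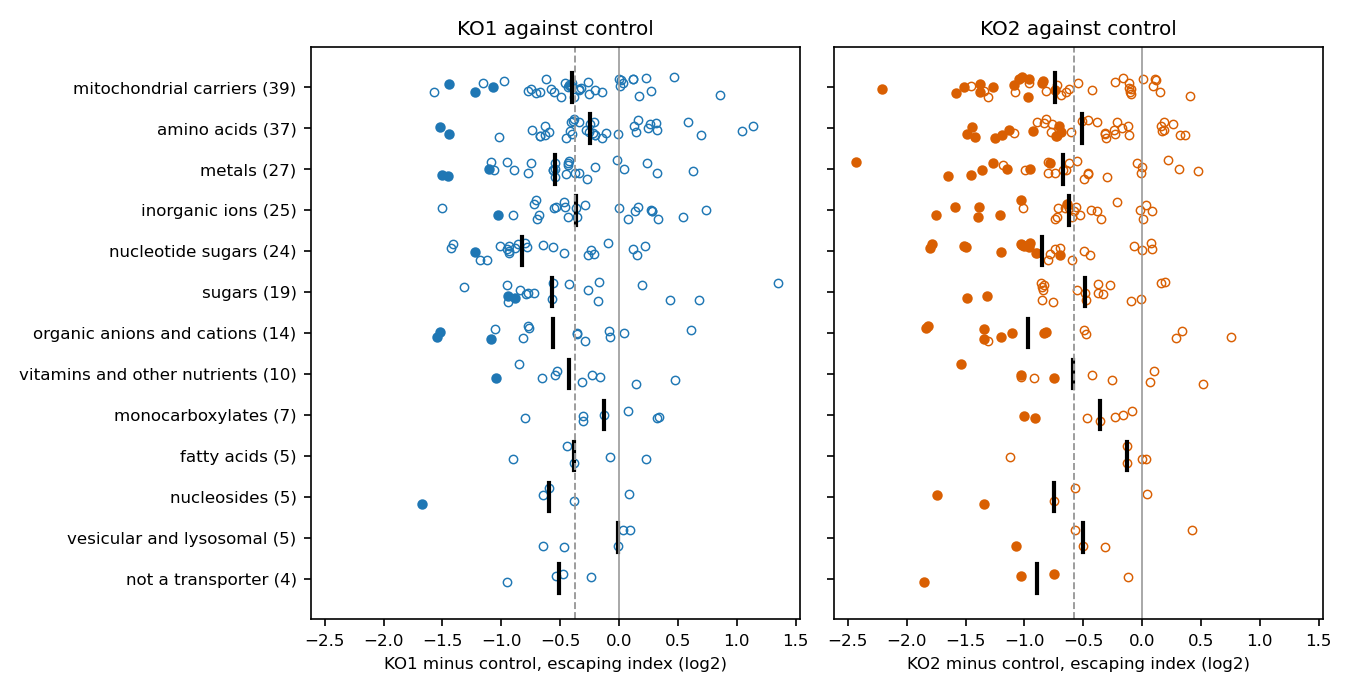
Change in escaping index (log2, knockout minus control) of each solute carrier gene in substrate classes of 3 or more genes, with KO1 on the left and KO2 on the right, filled points for called genes, open points for the rest, a black line at each class median and a dashed line at the median of all protein-coding genes. Filled points lie to the left of 0 in every class that has any. The class of nucleotide sugars holds all 24 measured Slc35 genes, assigned by family number. Its median is at -0.83 in KO1 and -0.85 in KO2, left of the dashed lines at -0.37 and -0.58.

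The Slc35 family includes nucleotide sugar carriers that supply the Golgi and endoplasmic reticulum with substrates for glycosylation. Classes were assigned by family number, so all 24 measured Slc35 genes were placed in this class whatever their own substrate. The counts and medians below describe the family and not nucleotide sugar transport alone. Of 24 members, 1 was called in KO1 (4.17%) and 12 in KO2 (50.0%), beside 6.27% and 29.6% of all coding genes. These shares were not tested against other genes. The median changes of the Slc35 carriers, -0.83 and -0.85, were lower than those of all coding genes (-0.37 and -0.58). They stayed below 0 after centring, at -0.45 and -0.29. Slc35g1, the 1 member called in KO1, was at 4.83 and 4.37 in control, 3.31 and 3.44 in KO1 and 3.30 and 3.49 in KO2. Slc35c2, linked to fucosylation of Notch, was at 2.51 and 2.61, 1.82 and 1.59, and 1.47 and 1.60. In each gene both knockouts lay below control and overlapped each other. Called in KO2 were also Slc35a1, the CMP-sialic acid carrier (-1.51 ± 0.38), Slc35a2, the UDP-galactose carrier (-0.90 ± 0.24), Slc35a3, which carries UDP-N-acetylglucosamine (-0.96 ± 0.18), and Slc35c1, the GDP-fucose carrier (-0.95 ± 0.27), with adjusted p from limma of 0.0358, 0.0405, 0.0218 and 0.0464. Slc35a2 was at 0.24 and 0.02 in control and went to -0.16 and -0.50 in KO1 and -0.60 and -0.93 in KO2. Among 5 vesicular and lysosomal carriers, Slc17a5, the lysosomal exporter of sialic acid, fell in KO2 (6.04 and 5.95 in control, 4.78 and 5.07 in KO2, limma adjusted p = 0.0189), and Slc17a9, the vesicular nucleotide carrier, did not pass the test. Slc15a4, a lysosomal carrier of histidine and peptides, stood highest of all members in KO2 relative to control: 7.45 and 7.00 against 6.49 and 5.79, with 7.18 and 6.26 in KO1. Its change of 1.09 ± 0.40 was not called (limma adjusted p = 0.0887), and the KO1 libraries overlapped control. With its longest spliced transcript the KO2 difference was -0.91, in the other direction. Among the 4 genes that are not transporters, 3 fell in KO2, including Slc9a3r2, a scaffold that anchors transporters (-1.85 ± 0.43, limma adjusted p = 0.0305), and Slc7a6os (-0.75 ± 0.17, adjusted p = 0.0299).

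No member was called as different between the knockouts. In the direct test of KO1 minus KO2, limma called 0 of 225 members, as it called 0.0% of all coding genes. At an unadjusted p under 0.05, 44 members were higher and 4 lower in KO1, where 20.5% of coding genes passed in either direction. The smallest adjusted p among members was 0.125, shared by several genes. One of them was Slc25a3, the mitochondrial phosphate carrier that supplies ATP synthase, at mm10 chr10:91116574-91124059. Its index was 6.94 and 7.18 in control, 7.47 and 7.59 in KO1 and 6.02 and 6.07 in KO2. KO1 lay above and KO2 below both controls, with a KO1 minus KO2 difference of 1.49 ± 0.18. Against control it fell in KO2 (-1.02 ± 0.18, limma adjusted p = 0.0197) and was not called in KO1 (0.47 ± 0.18, adjusted p = 0.146). Its 3 annotated protein-coding transcripts start within 104 bases of each other and gave changes of -1.02, -0.97 and -1.19 in KO2 and of 0.47, 0.39 and 0.10 in KO1, and they share most of their sequence.

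The same order, KO1 above and KO2 below both controls, held for 7 of 225 members, 3.11%, which was near the 2.74% of all coding genes. The reverse order, found in 0.678% of coding genes, held for 0. Besides Slc25a3 they were Slc25a34, an Slc25 carrier of unsettled substrate, Slc2a3, Slc38a2 (the amino acid importer SNAT2), Slc38a6, and the Slc16 members Slc16a3 (the lactate exporter MCT4) and Slc16a14. Slc38a2 was at 3.82 and 3.87 in control, 4.11 and 3.90 in KO1 and 3.44 and 3.33 in KO2. Slc25a34 was at -0.08 and 0.18, 0.30 and 1.52, and -0.67 and -0.61, with its KO1 libraries more than 1 log2 unit apart. The order depended on the scaling: after centring, or with quantile normalization, the KO2 difference from control was above 0 for 5 of the 7 (Slc2a3, Slc16a14, Slc38a2, Slc16a3 and Slc38a6) and stayed below 0 for Slc25a3 and Slc25a34. Across these genes the KO1 minus KO2 difference was between 0.42 and 1.55, with limma adjusted p from 0.125 to 0.271. In the opposite direction, with KO1 lower, the smallest p belonged to Slc47a1, Slc39a7, Slc25a39, Slc27a5 and Slc23a2. Slc39a7, a zinc exporter of the endoplasmic reticulum, was at 0.35 and 0.22 in control, -0.49 and -0.44 in KO1 and 0.12 and 0.35 in KO2. Slc23a2, a vitamin C importer, was at 7.68 and 7.31, 6.85 and 7.09, and 7.36 and 7.84. In both genes KO1 lay below control while KO2 overlapped it.

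**Figure D3:**
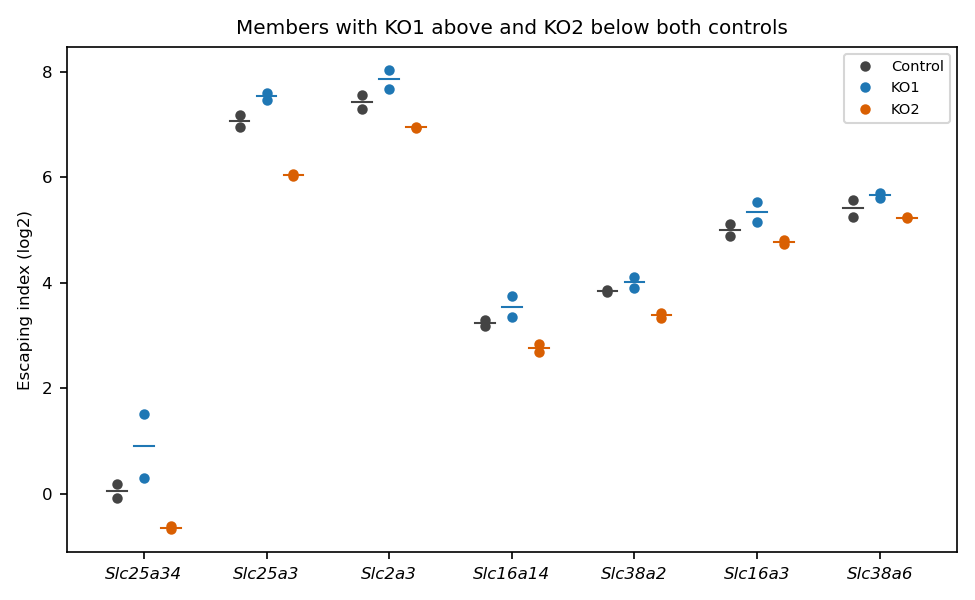
Escaping index (log2) of the 7 solute carrier genes whose KO1 libraries lay above and whose KO2 libraries lay below both controls (points are libraries, short lines group means). Slc25a3 and Slc25a34 show the widest gaps between the knockouts, 1.49 and 1.55, and Slc38a6 the narrowest, 0.42. The values are as deposited, and after centring each library the KO2 difference from control is above 0 for 5 of the 7, all but Slc25a3 and Slc25a34.

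In control cells the index of a solute carrier gene followed its length, as it did for other genes. Across the 225 members it had a Pearson's r of 0.57 and a Spearman's rho of 0.56 with the log10 genomic span (0.69 and 0.68 across 12974 coding genes). Genes are not independent replicates, all points come from the same 2 libraries, and how the index treats length is not stated in the labels. The change in the knockouts had r of 0.08 in KO1 and -0.05 in KO2 with the same measure. Each gene was therefore set against the median control index of coding genes in the same length class, of 10 classes of equal size by genomic span. On that scale 131 of 225 members lay below 0, with a median of -0.36. Monocarboxylate carriers had a median of -1.82, amino acid carriers -0.60 (29 of 37 below 0) and Slc25 carriers 0.10 (17 of 39 below 0). Relative to their length, Slc38a3 (1.06 and 0.86) and Slc26a6 (1.84 and 2.20) were among the lowest and Slc3a2 among the highest. Slc38a3, a glutamine transporter, fell in KO2 to -0.27 and -0.18 (limma adjusted p = 0.023), and Slc26a6, an anion exchanger, was at 1.55 and 1.35 there and not called. With the longest spliced transcript of Slc38a3 the KO2 difference was 0.46, in the other direction.

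**Figure D4:**
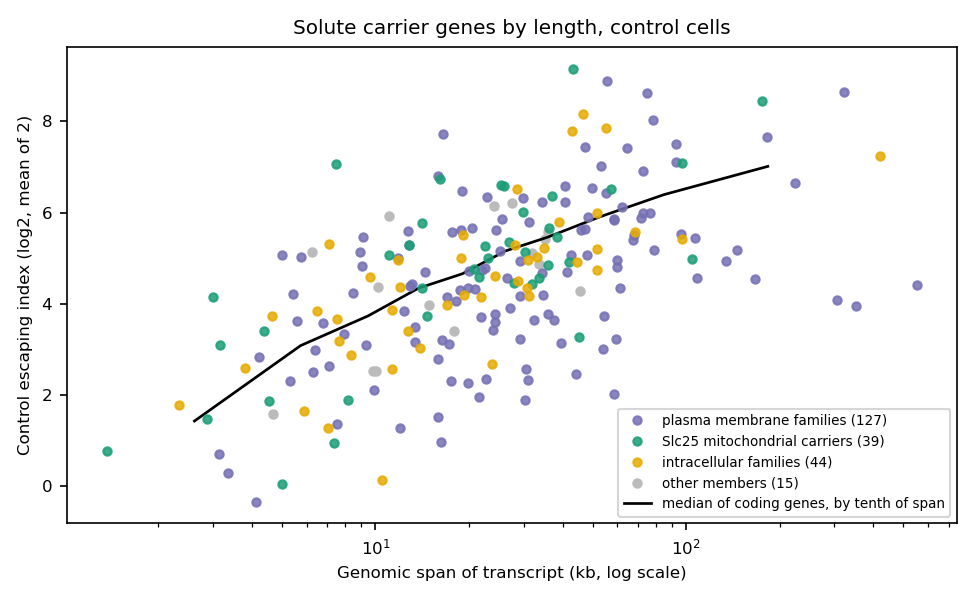
Mean control escaping index (log2, 2 libraries) of each solute carrier gene against the genomic span of its transcript (kb, log scale), coloured by location, with the median of all protein-coding genes in each of 10 classes of span as a black line. The index climbs with span in the family (r = 0.57), and 131 of 225 members lie below the median of their class.

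The value of a gene also depended on which start its transcript had. Of the 225 members, 72 had another protein-coding transcript that starts at least 500 bases away, and for 22 of these the average change of the 2 starts differed by more than 1 log2 unit. Among the 22 were Slc7a6, Slc10a3, Slc25a51, Slc35c2 and Slc9a3r2, whose calls above rest on the longest transcript alone. Members with a single start or close starts had 51 of 153 called in KO2, and those with distant starts 23 of 72. Of all coding genes, whatever their starts, 29.6% were called in KO2. The 2 groups of members were not tested against each other. The gene Slc12a8 gives an example at close range. It spans mm10 chr16:33517328-33663408. The transcript from its first start was at 5.28 and 5.07 in control, 4.22 and 4.06 in KO1 and 3.44 and 3.39 in KO2, and the groups were separate: it fell by 1.03 in KO1 (limma adjusted p = 0.0416) and by 1.75 in KO2 (adjusted p = 0.017). A transcript that starts 1001 bases downstream was at 6.23 and 6.32, 6.81 and 6.07, and 6.85 and 6.42, with KO1 overlapping control, both KO2 libraries above it, and differences of 0.17 and 0.36. Starts 950 and 1208 bases downstream gave -0.05 and -0.56 in KO2. Transcripts of a gene share most of their length, and these values were not tested against each other.

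Slc45a3, the prostate protein prostein, which is related to sugar transporters, spans mm10 chr1:131962967-131982969. From its first start it was at 4.81 and 4.64 in control, 3.77 and 3.92 in KO1 and 3.15 and 3.33 in KO2, and fell in both knockouts (-0.89 ± 0.18 and -1.49 ± 0.18, limma adjusted p = 0.0489 and 0.017). A start 7642 bases downstream gave 3.17 and 2.36, 2.44 and 2.43, and 2.46 and 3.14, with overlapping groups and a KO2 difference of 0.04. The 250 bases before 2 RefSeq starts each of Slc12a8 and Slc45a3 are printed because starts of these genes gave different changes. Those before a RefSeq start of Slc25a3 are printed because the 2 knockouts lay on opposite sides of control there. They are from RefSeq's GRCm38.p6 annotation, 5′ to 3′ on the gene's strand, and capitals mark a GC box, a CCAAT box or a TATA box on either strand. The first Slc12a8 window, chr16:33517078-33517327 on the plus strand, ends at the first base before the transcript start, and the second, chr16:33518285-33518534, ends before the start 1208 bases downstream. That start, like the first, gave a KO2 difference below 0. It is not the start 1001 bases downstream, where the KO2 difference was 0.36. The Slc45a3 windows are chr1:131962665-131962914, which ends 52 bases before the annotated start, and chr1:131970359-131970608, both on the plus strand. That of Slc25a3 is chr10:91123968-91124217 on the minus strand. It ends before a RefSeq start at 91123967, which lies inside the longest transcript. The last part of this window is therefore within the measured transcript and not upstream of it.
Slc12a8, first start: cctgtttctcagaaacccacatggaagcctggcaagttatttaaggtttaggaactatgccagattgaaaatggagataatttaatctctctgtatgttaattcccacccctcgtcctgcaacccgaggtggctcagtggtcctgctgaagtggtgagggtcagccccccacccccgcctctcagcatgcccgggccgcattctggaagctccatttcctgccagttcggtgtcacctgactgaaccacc
Slc12a8, downstream start: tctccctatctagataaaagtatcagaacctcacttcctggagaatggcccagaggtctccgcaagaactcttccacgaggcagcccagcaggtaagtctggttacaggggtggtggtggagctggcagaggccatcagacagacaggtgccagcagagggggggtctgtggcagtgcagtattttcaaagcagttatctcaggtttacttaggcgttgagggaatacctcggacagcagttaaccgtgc
Slc45a3, first start: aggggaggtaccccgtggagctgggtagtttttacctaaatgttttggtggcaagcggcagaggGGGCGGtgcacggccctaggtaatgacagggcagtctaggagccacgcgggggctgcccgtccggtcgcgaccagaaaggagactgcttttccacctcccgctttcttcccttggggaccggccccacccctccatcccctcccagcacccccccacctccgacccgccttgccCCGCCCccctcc
Slc45a3, downstream start: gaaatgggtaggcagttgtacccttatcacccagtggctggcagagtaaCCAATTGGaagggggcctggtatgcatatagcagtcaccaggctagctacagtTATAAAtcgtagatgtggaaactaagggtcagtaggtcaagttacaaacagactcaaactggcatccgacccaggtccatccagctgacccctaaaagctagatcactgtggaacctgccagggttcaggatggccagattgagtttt
Slc25a3: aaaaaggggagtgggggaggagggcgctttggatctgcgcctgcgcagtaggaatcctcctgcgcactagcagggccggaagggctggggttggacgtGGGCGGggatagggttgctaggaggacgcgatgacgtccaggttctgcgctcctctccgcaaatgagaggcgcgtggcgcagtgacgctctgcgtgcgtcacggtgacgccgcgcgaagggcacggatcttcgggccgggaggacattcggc

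The windows differ in base content. The Slc25a3 window holds 27 CpG dinucleotides and 1 GC box, the first Slc45a3 window 15 CpG and 2 GC boxes, and the downstream Slc45a3 window 2 CpG, 1 TATA box and 2 CCAAT boxes that overlap on opposite strands. The 2 Slc12a8 windows hold 6 and 5 CpG and 0 of the motifs searched. A match is a description of the letters and not evidence of a bound factor.

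**Figure D5:**
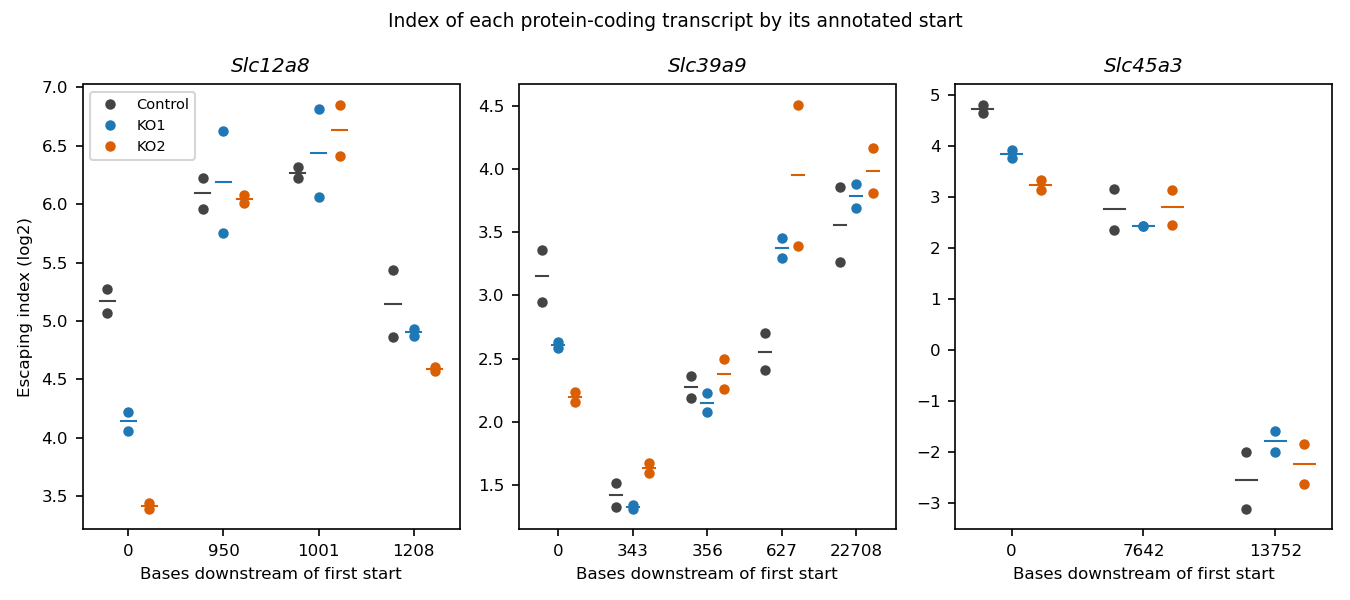
Escaping index (log2) of each protein-coding transcript of Slc12a8, Slc39a9 and Slc45a3, ordered by the distance of its annotated start from the first start (bases), with libraries as points and group means as short lines. At distance 0 both knockouts lie below control in all 3 genes. For Slc39a9 at 627 bases the knockouts lie above control.

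Slc39a9, the zinc importer ZIP9, showed differences of opposite sign at its starts. From the first start it was at 2.95 and 3.36 in control, 2.63 and 2.59 in KO1 and 2.16 and 2.24 in KO2 (-0.96 ± 0.20 in KO2, limma adjusted p = 0.0255). From a start 627 bases downstream it was at 2.41 and 2.70 in control, 3.29 and 3.45 in KO1 and 4.51 and 3.39 in KO2, with both knockouts above control, and from one 356 bases downstream the KO2 difference was 0.10. The annotated locus overlaps Erh, whose own index fell in KO2 (-0.93 ± 0.18, limma adjusted p = 0.0222), and its part in the values was not tested. Slc5a6, the importer of biotin and pantothenate, had the widest gap of all members: changes of -1.32 in KO1 and -0.85 in KO2 from its first start, neither called, and of 1.10 and 0.86 from a start 6319 bases downstream, where the control libraries were 0.94 and -0.60. For Slc3a2 the level itself moved. Its longest transcript was at 7.58 and 7.85 in control, while a transcript that starts 9490 bases downstream was at 0.54 and 0.58 in control, 0.45 and 0.50 in KO1 and 0.06 and 0.03 in KO2.

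Promoter sequence was set beside the calls for the 143 members with a RefSeq start within 100 bases of the transcript start. It was searched over the 250 bases before that RefSeq start, on both strands. A GC box (GGGCGG) was in 99 of 143 members (69.2%), beside 63.5% of 8290 coding genes matched in the same way and 32.7% of all 32851 promoters in the table. Among members called in KO2 it was in 40 of 50 (80.0%), and among those not called in 59 of 93 (63.4%). This difference was not tested. A TATA box (TATAAA) was in 8 of 143 members (5.59%) and 5.59% of coding genes, and CCAAT in 34.3% and 38.5%. The amino acid response motif (TGATGNAAT) was in 0 of 143, beside 0.314% of coding genes. No motif of the 4 contains another. Median CpG counts were 14 in members, 15.5 in members called in KO2, 13 in those not called and 16 in coding genes. These counts were not tested against each other.

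Genes that work with solute carriers were counted in the same fit, where 6.27% of all coding genes were called in KO1 and 29.6% in KO2. Of 25 amino acid response genes, which raise the supply of amino acids under starvation, 1 fell in KO1 (4.0%) and 9 in KO2 (36.0%), with median changes of -0.35 and -0.70. Atf4, the transcription factor of that response, was at 4.87 and 4.80 in control, 3.94 and 3.80 in KO1 and 3.52 and 3.27 in KO2 and fell in both (limma adjusted p = 0.0457 and 0.017). Eif2ak4, the kinase that senses uncharged tRNA, Aars, an alanyl-tRNA synthetase, and Nupr1 fell in KO2 by 1.25, by 0.92 and by 1.04. Of 28 genes of mTORC1 nutrient sensing, the pathway that reads amino acid supply at the lysosome, 3 fell in KO1 (10.7%) and 9 in KO2 (32.1%), with medians of -0.47 and -0.71. Those 3 were Rragb, a GTPase that recruits mTORC1, Mios, a subunit of the GATOR2 complex, and Fnip2, a partner of folliculin, with KO1 changes of -1.06, -1.19 and -1.04. Sesn2, a leucine sensor, fell in KO2 by 1.12. Of 20 partners and drivers of transport, a list that includes the members Slc9a3r1 and Slc9a3r2, 2 fell in KO1 (10.0%) and 7 in KO2 (35.0%), among them Atp1b3 and Atp1b1, beta subunits of the sodium pump, and Vdac3, a channel of the outer mitochondrial membrane. Vdac2 was at -1.11 in KO1 and -0.72 in KO2 and was not called. Carriers under other names had 2 of 27 called in KO1 (7.41%) and 8 in KO2 (29.6%), including Sfxn4, Spns2, Mfsd2b and Slco4c1, and the ABC transporters, which use ATP directly, had 4 and 14 of 30 (13.3% and 46.7%). The shares of the first 4 lists in KO2, 29.6% to 36.0%, were near the background of 29.6%. The lists are given as counts, and none was tested against other genes. The median changes over all coding genes, for comparison, were -0.37 and -0.58.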

How the data were processed

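Values were analysed for 6 mNET-seq libraries, 2 each of control, KO1 and KO2. The authors deposited them as a log2 escaping index for 68473 transcripts, with no counts, so the read depth per library is unknown and no interval based on counts is given. Per the submitters' processing notes, the tools include CASAVA, Trimmomatic 0.38, HISAT2 2.1.0 and featureCounts on mm10. Their settings, the index windows and the use of strand are not stated in the labels, so overlapping genes cannot be told apart.

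Transcripts were matched without version to GENCODE M21 (68397 matched, 76 did not). Of 33978 protein-coding transcripts, the one with the longest genomic span was kept for each of 12974 genes. The values were tested as deposited, without rescaling, with limma 3.58.1 (R 4.3.3), which fitted a mean per group over all 6 libraries, moderated variances with a trend (3 residual and 2.68 prior degrees of freedom), two-sided, Benjamini-Hochberg over all genes, called under 0.05. Python 3.11.15, pandas 2.3.3, numpy 2.4.6 and matplotlib 3.10.9 did the rest. In simulated data on these 12974 genes for KO2 against control, 51.4% of changes of 2 and 4.8% of changes of 1 were recovered. In these data 13 of 294 calls were false. The simulation changed few genes and left the rest without a change, whereas 29.6% of coding genes were called in KO2. The Benjamini-Hochberg threshold is stricter when few genes change, so these shares do not give the power on the real data.

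The members, lists and naming rule were chosen with earlier results of these data known. The rule took up to 12 called members per contrast with the smallest p, or up to 5 as values only, the 2 smallest p per substrate class, the extremes of the control index, members with the widest difference between starts, up to 4 genes of each other list, and a set of well-known carriers. Some genes it takes are not reported here. Slc16a3, Slc16a14, Slc22a5, Slc25a13, Slc25a26, Slc25a36, Slc31a1, Slc35a1, Slc35a3, Slc35c1, Slc38a6 and Slc40a1 fall outside it and were chosen after their values were seen. Alternatives were another transcript choice, all biotypes, centring, quantile normalization, a pseudocount of 1, filters, other variance settings, a replicate block and leaving out each library.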

Additional observations from a re-analysis of the deposited data

Results flagged for a closer look

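As deposited, every KO1 library lay above and every KO2 library below both control libraries for 7 of 225 solute carrier genes (3.11%), beside 2.74% of all protein-coding genes. The KO1 minus KO2 difference was 1.55 for Slc25a34, 1.49 for Slc25a3, 0.91 for Slc2a3, 0.79 for Slc16a14, 0.63 for Slc38a2, 0.57 for Slc16a3 and 0.42 for Slc38a6. Tested directly with limma, these differences had adjusted p values from 0.125 to 0.271, and 0 of the 7 passed. Against control, Slc25a3 was called lower in KO2, and the other 6 genes were called in neither knockout. After centring of each library, the KO2 difference from control was above 0 for 5 of the 7: 0.081 for Slc2a3, 0.087 for Slc16a14, 0.093 for Slc38a2, 0.33 for Slc16a3 and 0.38 for Slc38a6. With quantile normalization these values were 0.074, 0.11, 0.097, 0.33 and 0.39. Under both scalings the KO2 difference stayed below 0 for Slc25a3 and Slc25a34. The controls are shared by both knockouts, so a low or high control pair enters both differences.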

How the results depend on the processing

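As deposited, limma called 17 members (KO1), 74 (KO2), 67 (the average of both) and 0 (KO1 against KO2). Centring each library on its median, or quantile normalization, left 0 called in each. With all biotypes tested the counts were 0, 56 and 48, with only the groups of the contrast 0 and 52, and with only genes that overlap no other gene 10, 41 and 38, where 122 members were tested. The cause of these losses was not tested, apart from the fewer members in the last. For this and the other settings here, the share of all genes called is not reported. The counts therefore do not show whether members lost calls more than other genes did. The counts with the longest spliced transcript, the mean over transcripts, a pseudocount of 1, a mean index above 0 and no variance trend were 14 to 19 for KO1, 67 to 75 for KO2 and 60 to 67 for the average. Same-numbered libraries did not deviate together across genes (correlations of 0.0016, -0.009 and 0.0077 between groups). Such values cannot tell whether same-numbered libraries shared a culture or a day, and the labels do not state it. With the replicate number as a block, the counts were 0, 57 and 56. Leaving out each library in turn gave 0 calls for KO1, 0 to 52 for KO2 and 0 to 29 for the average, where a lone library is assumed to vary like the other groups. The median changes then ran from -0.41 to -0.38 for all members in KO1, -0.42 to -0.26 for Slc25 carriers in KO1, -0.38 to -0.32 for plasma membrane families in KO1, -0.69 to -0.57 for all members in KO2, -0.86 to -0.56 for Slc25 carriers in KO2 and -0.62 to -0.55 for plasma membrane families in KO2.

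For all members, Slc25 carriers and plasma membrane families, the median changes were with centring -0.038, -0.025 and 0.016 in KO1 and -0.13, -0.18 and -0.064 in KO2. These were with quantile normalization -0.045, -0.037 and 0.012 in KO1 and -0.099, -0.18 and -0.050 in KO2. They were with the longest spliced transcript -0.40, -0.41 and -0.34 in KO1 and -0.64, -0.74 and -0.55 in KO2. They were with the mean over transcripts -0.33, -0.26 and -0.28 in KO1 and -0.54, -0.62 and -0.53 in KO2. They were with no overlapping gene -0.39, -0.34 and -0.33 in KO1 and -0.60, -0.77 and -0.57 in KO2. They were with a pseudocount of 1 -0.38, -0.40 and -0.34 in KO1 and -0.60, -0.71 and -0.56 in KO2. The change took the other sign with centring in KO1 Slc10a7 0.29, Slc12a2 0.012, Slc13a5 0.30, Slc16a1 0.074, Slc22a5 0.016, Slc25a26 0.18, Slc39a1 0.039, Slc3a2 0.13, Slc7a5 0.23 and in KO2 Slc16a14 0.087, Slc16a3 0.33, Slc17a9 0.24, Slc25a5 0.45, Slc27a1 0.43, Slc2a1 0.18, Slc2a3 0.081, Slc38a2 0.093, Slc38a6 0.38, Slc39a7 0.51, Slc4a2 0.12, Slc7a5 0.25. The change took the other sign with quantile normalization in KO1 Slc10a7 0.27, Slc12a2 0.016, Slc13a5 0.29, Slc16a1 0.041, Slc22a5 0.012, Slc25a26 0.18, Slc39a1 0.027, Slc3a2 0.15, Slc7a5 0.22 and in KO2 Slc16a14 0.11, Slc16a3 0.33, Slc17a9 0.26, Slc25a5 0.48, Slc26a6 0.018, Slc27a1 0.45, Slc2a1 0.20, Slc2a3 0.074, Slc38a2 0.097, Slc38a6 0.39, Slc39a7 0.57, Slc4a2 0.13, Slc7a5 0.25. The change took the other sign with the longest spliced transcript in KO1 Slc12a8 0.17, Slc15a4 -0.41, Slc26a6 -0.66, Slc2a3 -0.50, Slc38a3 0.39, Slc5a6 0.23 and in KO2 Slc12a8 0.36, Slc15a4 -0.91, Slc29a1 -0.079, Slc38a3 0.46, Slc45a3 0.039. The change took the other sign with the mean over transcripts in KO1 Slc10a7 0.096, Slc26a6 -0.090, Slc29a1 -0.097, Slc2a3 -0.00362, Slc39a9 0.058 and in KO2 Slc23a2 -0.072, Slc27a1 0.12, Slc29a1 -0.24, Slc39a9 0.24, Slc7a3 -0.033. Without 1 library the sign also varied for Slc10a7 in KO1 -0.22 to 0.048, Slc13a5 in KO1 -0.47 to 0.32, Slc19a1 in KO1 -0.26 to 0.55, Slc23a2 in KO2 -0.14 to 0.34, Slc25a1 in KO1 -0.069 to 0.32, Slc25a1 in KO2 -0.18 to 0.20, Slc25a26 in KO1 -0.41 to 0.00553, Slc25a39 in KO2 -0.076 to 0.38, Slc25a44 in KO1 -0.075 to 0.41, Slc25a5 in KO1 -0.14 to 0.21, Slc25a5 in KO2 -0.29 to 0.069, Slc26a6 in KO1 -0.013 to 0.34, Slc27a1 in KO2 -0.27 to 0.022, Slc27a5 in KO2 -0.19 to 0.25, Slc29a1 in KO2 -0.060 to 0.14, Slc39a1 in KO1 -1.01 to 0.34, Slc39a7 in KO2 -0.16 to 0.071, Slc3a2 in KO1 -0.56 to 0.075, Slc4a2 in KO2 -1.01 to 0.15, Slc5a11 in KO2 -0.11 to 0.42.

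Depth is unknown, so limits from depth cannot be given. The test resolved few changes of 1 in simulated data where few genes changed, which does not give its power on the real data. The index moves with the annotated start, and 103 of 225 members overlap another gene.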
